A study of Homo sapiens with 7 samples.

Results

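The cytosolic ribosomal protein genes encode the protein part of the ribosome that translates messenger RNA in the cytoplasm. They were taken as the protein-coding genes on chromosomes 1 to 22 and X whose symbol is RPL or RPS followed by a number, with or without a closing A, L, X or L1, together with RPLP0, RPLP1, RPLP2 and RPSA. The rule found 84 genes among 19626 protein-coding genes, of which 52 belong to the large ribosomal subunit and 32 to the small subunit. The remaining 19542 protein-coding genes served as the comparison. The rule used symbols alone and no measured value. A gene was called in a library when a peak touched its promoter, taken as the 2000 bp before and the 500 bp after any transcription start site (TSS) of its protein-coding transcripts.

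Binding of Rb, the retinoblastoma tumour suppressor encoded by RB1, was mapped by CUT&RUN in ZR-75-1, an established hormone receptor-positive breast cancer line. CUT&RUN uses an antibody to direct a nuclease to a chromatin protein and sequences the DNA released around it. Parental cells were given DMSO (2 libraries with the Rb antibody) or 500 nM palbociclib, an inhibitor of the cyclin-dependent kinases CDK4/6 that phosphorylate Rb (2 libraries with the Rb antibody and 1 with a non-targeting IgG2a antibody), and the treatments lasted 4 days. RB1 KO cells, which were edited to lose Rb and grown from single sorted cells, gave 1 Rb library with DMSO and 1 with 500 nM palbociclib. The palbociclib profiling was done in a single experiment with 2 biological replicates in each arm, so the spread between replicates does not cover a repeat of the experiment.

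Ribosomal protein genes are among the most strongly transcribed genes of a growing cell, and their products are made in matched amounts. Most of their messenger RNAs begin with a cytosine followed by a run of pyrimidines, the 5′ terminal oligopyrimidine (TOP) motif, through which mTOR signalling controls their translation. Hypophosphorylated Rb binds E2F transcription factors at promoters and is best known for holding back genes of DNA replication and mitosis. The comparison of palbociclib with DMSO shows at which ribosomal protein promoters Rb was called before and after the kinases were inhibited.

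Short stretches of 2 kinds of sequence are shown, because the results return to both. The first is the start of the transcript at 5 genes with a peak in both palbociclib libraries (RPS19, RPL35, RPSA, RPL27A and RPLP2) and at 5 with a peak in neither (RPS6, RPL5, RPL11, RPLP0 and RPL23). Each line holds 10 bases before the canonical TSS and 20 from it onward, in hg38 on the strand of the gene, with the run of pyrimidines that begins at the TSS in capitals.
RPS19, chr19:41860245-41860274, plus strand: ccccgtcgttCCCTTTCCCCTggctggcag
RPL35, chr9:124861938-124861967, minus strand: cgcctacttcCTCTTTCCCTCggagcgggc
RPSA, chr3:39406710-39406739, plus strand: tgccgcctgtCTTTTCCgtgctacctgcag
RPL27A, chr11:8682782-8682811, plus strand: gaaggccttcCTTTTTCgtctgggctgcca
RPLP2, chr11:809957-809986, plus strand: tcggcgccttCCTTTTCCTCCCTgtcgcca
RPS6, chr9:19380217-19380246, minus strand: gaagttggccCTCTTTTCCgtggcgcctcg
RPL5, chr1:92832030-92832059, plus strand: gggctgtggcCCTTTTCCCaccccctagcg
RPL11, chr1:23691796-23691825, plus strand: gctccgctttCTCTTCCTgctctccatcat
RPLP0, chr12:120201092-120201121, minus strand: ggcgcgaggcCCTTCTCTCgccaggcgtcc
RPL23, chr17:38853702-38853731, minus strand: ttcttttttcCggcgttcaagatgtcgaag
The pyrimidine run was 7 to 13 bases long at the 5 genes with a peak and 8 or 9 bases long at RPS6, RPL5, RPL11 and RPLP0. At RPL23 it was 1 base long at the annotated TSS, with a longer run of pyrimidines just before it.

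The second kind is the E2F motif, searched as TTTCCCGC, TTTGGCGC, TTTCGCGC and TTTGCCGC on both strands. At 4 genes with a peak in both palbociclib libraries a match lay inside the peak, and it is shown in capitals within 30 bases of hg38 on the strand of the ribosomal protein gene.
RPS29, chr14:49598835-49598864, minus strand: gtatgaagcccGCGGGAAAcggcttccctt
RPL7A, chr9:133347993-133348022, plus strand: gcgacccgcacTTTCCCGCgtctctcccac
RPLP2, chr11:809772-809801, plus strand: tgcccttcgccTTTGCCGCgaaaagtgcct
RPL14, chr3:40457426-40457455, plus strand: gggaagctgagGCGCCAAAcggctcccaga
The match was 0 to 56 bp from the summit at RPL7A, 34 and 42 bp at RPL14, 222 and 234 bp at RPS29 and 211 and 351 bp at RPLP2. The fifth such gene, RPS20, held its match 193 bp from the summit in both libraries. Relative to the canonical RPS29 TSS, the RPS29 match lay at -12470 bp (negative upstream).

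Few ribosomal protein promoters were called with DMSO and about 1 in 3 after palbociclib, shares close to those of the other protein-coding genes. With DMSO, 3 (3.57%) and 4 (4.76%) of the 84 genes had a promoter peak in replicates 1 and 2, against 5.1% and 4.2% of the other genes. With palbociclib the numbers were 32 (38.1%) and 28 (33.3%), against 39% and 38.3% of the other genes. The mean share was 4.17% ± 0.842 (SD, n = 2) with DMSO and 35.7% ± 3.37 (SD, n = 2) with palbociclib, a difference of 31.5 percentage points and a ratio of 8.57. For the other genes the same ratio was 8.32. Both palbociclib libraries lay above both DMSO libraries, and the exact two-sided permutation test over libraries gave p = 0.333, the smallest that 2 against 2 allows. The palbociclib lists were longer throughout the genome, with 8314 and 8171 peaks on these chromosomes against 922 and 753. When every list was cut to its 753 strongest peaks, the difference was -1.79 percentage points.

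**Figure D1:**
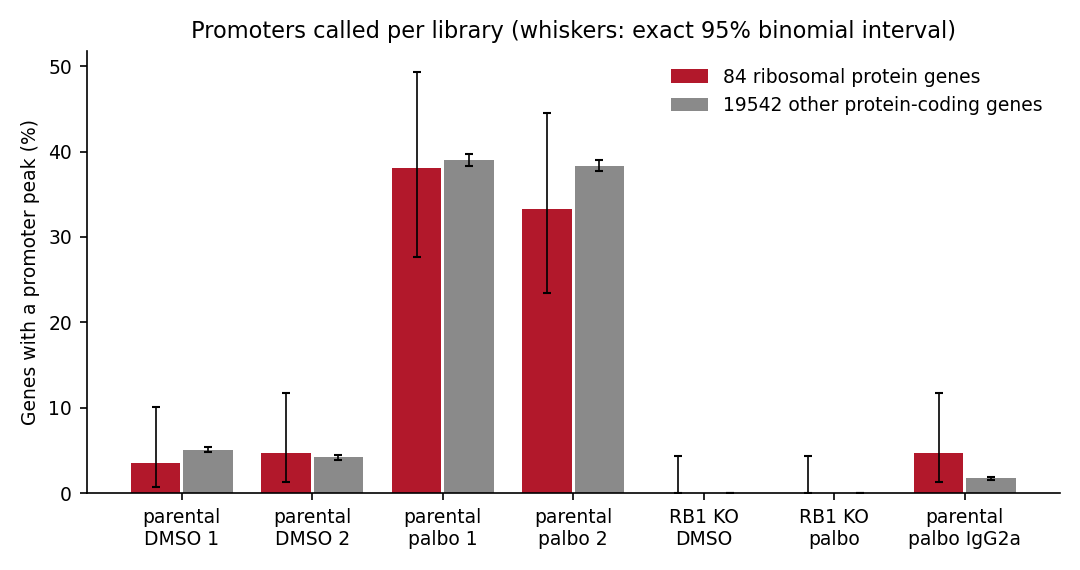
Share of genes with a promoter peak (vertical axis, %) in each of the 7 libraries, for the 84 ribosomal protein genes (red) and the 19542 other protein-coding genes (grey), with exact 95% binomial intervals that cover counting error only. The palbociclib bars stand at 38.1% and 33.3% for ribosomal protein genes and at 39% and 38.3% for the others, and the RB1 KO bars at or near 0.

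Peaks at ribosomal protein promoters were not called in the RB1 KO cells. In either RB1 KO library 0 of 84 genes had one, which allows a share of up to 3.57% by a limit of 3 counts and 4.30% by the exact 95% interval, and 0.00512% of the other genes (1 gene) were called. The RB1 KO lists were nearly empty on these chromosomes, with 4 and 5 peaks in all. The IgG2a list had a peak at 4 of the 84 genes (4.76%, exact 95% interval 1.31 to 11.7%), RPS23, RPLP1, RPL38 and RPL14, against 1.72% of the other genes. Of these, RPL14 was also called in both palbociclib Rb libraries and RPLP1 in the first, and RPS23 and RPL38 in no Rb library. Among the other genes, 194 of the 336 called with IgG2a were also called in at least 1 palbociclib Rb library.

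A peak was called in both palbociclib libraries at 25 of the 84 genes (29.8%, exact 95% interval 20.3 to 40.7%), where 34.3% of the other genes were called. A further 10 genes (11.9%) were called in 1 palbociclib library and 49 (58.3%) in neither, against 8.66% and 57.0% of the other genes. The share was 14 of 52 (26.9%) in the large subunit and 11 of 32 (34.4%) in the small subunit. None of the 7 tissue-restricted or duplicated paralogues (RPL3L, RPL7L1, RPL10L, RPL22L1, RPL26L1, RPL39L and RPS27L) was called in both, which left 25 of 77 genes (32.5%) without them. No ribosomal protein gene was called with DMSO alone, and all 5 genes called in any DMSO library were called in both palbociclib libraries. Among the other genes likewise, 0 were called with DMSO alone and 1259 of the 1263 called in any DMSO library were called in both palbociclib libraries.

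Larger shares were called in other lists of translation and ribosome genes than among the cytosolic ribosomal protein genes themselves. After palbociclib, 12 of 18 other TOP genes (66.7%), which encode elongation and initiation factors and related proteins, had a peak in both libraries. The ribosome assembly list, made up of nucleolar and pre-ribosome factors, had 14 of 25 (56%), and the nuclear genes for mitochondrial ribosomal proteins 38 of 78 (48.7%). DNA replication genes, the textbook targets of Rb and E2F, had 12 of 12. These are descriptions beside the 34.3% of other genes, since the lists are small and their exact intervals wide.

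**Figure D2:**
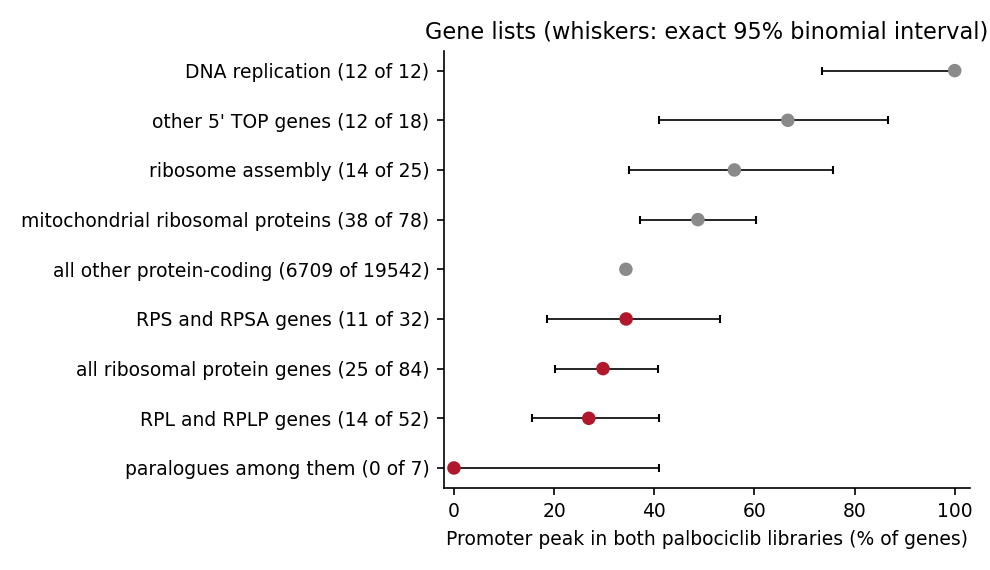
Share of each gene list with a promoter peak in both palbociclib libraries (horizontal axis, % of genes), with exact 95% binomial intervals. Ribosomal protein lists are red and the others grey. All ribosomal protein genes stand at 29.8%, other TOP genes at 66.7%, ribosome assembly genes at 56% and DNA replication genes at the right end.

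The strength of a peak was read as fold enrichment, the ratio of the fragments stacked at the summit to the background estimated there, as the peak caller gave it. Among called genes, the median fold enrichment at ribosomal protein promoters was 6.2 and 6.4 in the palbociclib libraries against 7.75 in both at other promoters. The ratio of the medians was 0.814 ± 0.0181 (SD, n = 2). Ranked among all called genes of a library, the median ribosomal protein gene stood at percentile 34.3 and 37.6. The median width of their peaks was 395 and 402 bp against 518 and 502 bp. Over the 25 genes called in both libraries, fold enrichment in replicate 2 was 0.894 times that in replicate 1 at the median (range 0.549 to 1.53).

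RPS29 and RPS20, both of the small subunit, stood apart from the other ribosomal protein genes. RPS29 had a fold enrichment of 8.63 and 6.23 in the DMSO libraries and of 36.7 and 32.8 in the palbociclib libraries. It ranked 145 of 7649 and 178 of 7522 among the genes called with palbociclib. RPS20 had 6.42 and 5.25 with DMSO and 30.8 and 22.4 with palbociclib, ranking 222 and 503. They were the only members called in both libraries of both groups (2 of 84), where 2.83% of the other genes were called in both DMSO libraries. The mean fold enrichment was 4.68 times higher with palbociclib at RPS29 and 4.56 times at RPS20. The exact two-sided permutation test over libraries gave p = 0.333 at each gene, the smallest that 2 against 2 allows. At the 554 other genes called in all 4 parental libraries the same ratio had a median of 3.65 and a middle range (25th to 75th percentile) of 3.08 to 4.36.

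The peak assigned to RPS29 spanned chr14:49598730-49599508 and chr14:49598607-49599477 in the palbociclib libraries. It lay 12692 and 12704 bp upstream of the canonical RPS29 TSS and reached the gene through an alternative protein-coding TSS, with the summit 382 and 394 bp upstream of it. The summit was 132 and 144 bp downstream of the TSS of LRR1, a gene that is transcribed away from RPS29. A further RPS29 transcript that is not protein-coding starts 92 and 80 bp from the summit. RPS20 differed, since its summit lay in the 5′ UTR of exon 1, 60 bp downstream of the canonical TSS in both palbociclib libraries.

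A further 3 members were called in 1 DMSO library. RPL27A, of the large subunit, had 7.04 in DMSO replicate 1 and 11.6 and 10.1 with palbociclib. RPL35, also of the large subunit, had 5.40 in DMSO replicate 2 and 11.0 and 11.9 with palbociclib. RPS16, of the small subunit, had 4.91 in DMSO replicate 2 and 7.62 and 7.83 with palbociclib. At each of them the other DMSO library had no called peak. Each shares its promoter with a second gene, TRIM66 at RPL27A, ARPC5L at RPL35 and SUPT5H at RPS16.

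The remaining 5 of the 10 members with the highest mean fold enrichment were called with palbociclib alone. RPS19, the gene most often mutated in Diamond-Blackfan anaemia, had a fold enrichment of 15.2 and 15.7 with its summit 550 and 540 bp upstream of the TSS. RPSA, a small-subunit protein also described as a laminin receptor, had 11.7 and 10.2, with summits 171 bp upstream and 105 bp downstream of the canonical TSS. RPL22 had 9.04 and 8.72 at a site 9340 and 9366 bp upstream of its canonical TSS, 309 and 283 bp downstream of an alternative one. RPL28 had 8.15 and 8.17, and its summit lay 1887 and 1700 bp upstream of its own TSS and 247 and 60 bp downstream of that of TMEM238. RPLP2, a protein of the stalk that recruits elongation factors, had 7.92 and 8.39 with the summit 391 and 531 bp upstream. None of these 5 genes had a promoter peak with DMSO, in RB1 KO cells or with IgG2a.

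The sequence around the summit of palbociclib replicate 1 is shown for RPS19 and RPSA, and for RPL27A, which also had a DMSO peak, in hg38 on the plus strand, with matches to any searched motif in capitals.
RPS19, chr19:41859660-41859750: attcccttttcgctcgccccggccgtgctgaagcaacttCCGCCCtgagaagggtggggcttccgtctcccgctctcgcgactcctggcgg
RPL27A, chr11:8682484-8682574: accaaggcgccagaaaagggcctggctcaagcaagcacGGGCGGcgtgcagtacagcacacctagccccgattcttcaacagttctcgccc
RPSA, chr3:39406504-39406594: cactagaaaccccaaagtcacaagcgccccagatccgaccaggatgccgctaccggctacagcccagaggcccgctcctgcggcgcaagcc
The capitals at RPS19 and RPL27A are the SP/KLF motif GGGCGG or its reverse complement. None of the searched motifs occurred in the 91 bases at RPSA.

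The other 15 genes called in both palbociclib libraries had a mean fold enrichment below that of RPS16. They were RPL4, RPL7, RPL7A, RPL14, RPL18, RPL26, RPL36, RPL39 and RPL41 of the large subunit and RPS3, RPS9, RPS14, RPS15A, RPS21 and RPS25 of the small subunit. RPL26 had 5.66 and 6.76. RPL39, at the exit of the peptide tunnel, had 7.62 and 6.37 with its summit 192 bp upstream in both libraries. RPL7 had 6.47 and 5.66, but from different peaks, 1286 and 469 bp upstream of the canonical TSS. RPS14, whose loss underlies the anaemia of the 5q- syndrome, had 5.78 and 4.52. RPS9 varied most between replicates, with 7.11 and 3.90. RPS25 was the weakest of the 25 by the mean, with 4.48 and 3.90.

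**Figure D3:**
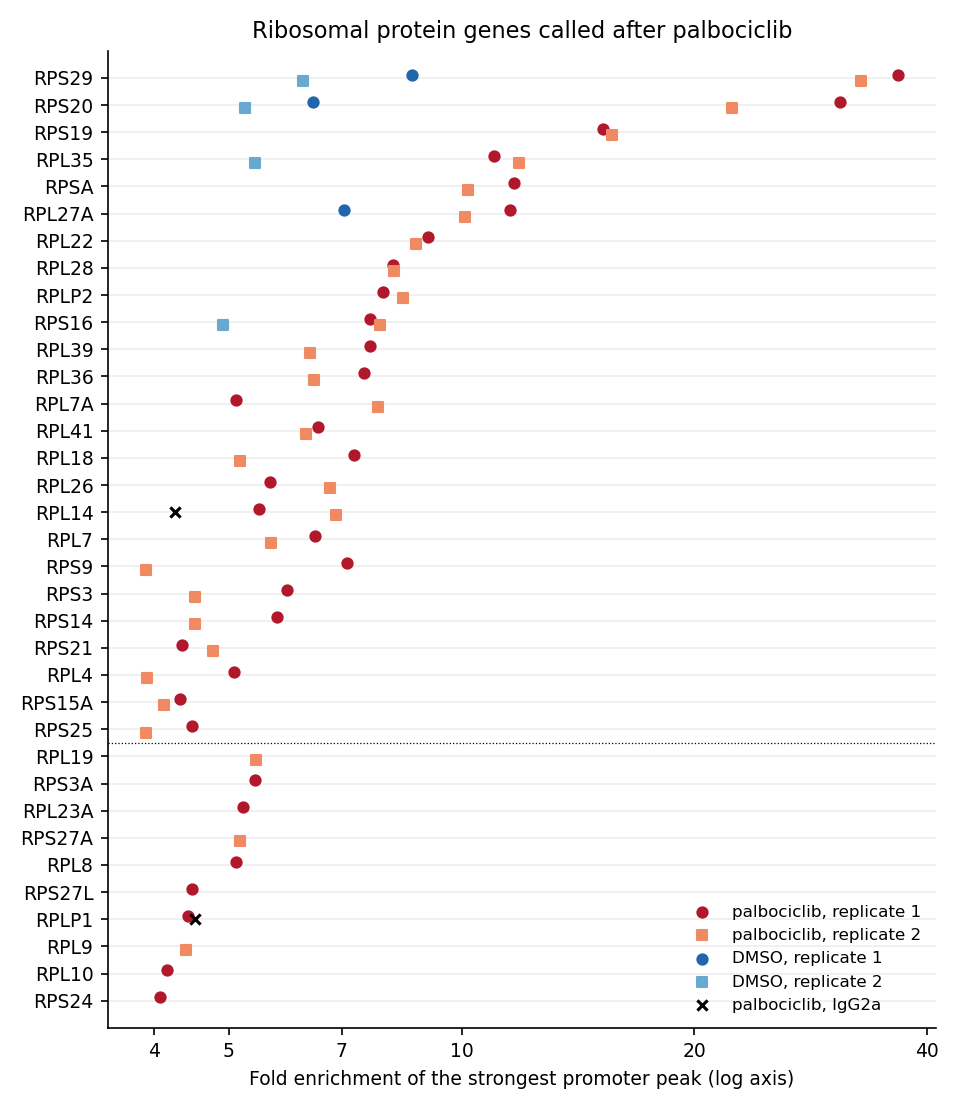
Fold enrichment of the strongest promoter peak (horizontal log axis) for each ribosomal protein gene called with palbociclib, 1 row per gene. Colours mark the libraries and crosses the IgG2a library. Genes above the dotted line were called in both palbociclib libraries. RPS29 (36.7 and 32.8) and RPS20 (30.8 and 22.4) lie to the right of the others, and DMSO points are present at 5 genes.

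The 10 genes called in 1 palbociclib library had weak peaks. In replicate 1 alone these were RPS3A (5.41), RPL23A (5.22), RPL8 (5.10), RPS27L (4.48), RPLP1 (4.42), RPL10 (4.16) and RPS24 (4.08). In replicate 2 alone they were RPL19 (5.42), RPS27A (5.16) and RPL9 (4.40). All 10 values were below the median of 7.75 at other promoters. RPLP1, a stalk protein like RPLP2, had an IgG2a peak of 4.51 beside its Rb peak of 4.42, and the part of the antibody background in that call was not tested. RPS27A, which encodes a fusion with ubiquitin, reached its call through a peak 689 bp upstream of its canonical TSS.

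The 49 genes called in neither palbociclib library include several with known roles outside the ribosome. RPL5 and RPL11, which with 5S ribosomal RNA bind and inhibit the ubiquitin ligase MDM2, had no promoter peak in any of the 7 libraries. The same held for RPL23, another MDM2-binding protein, for RPS6, a phosphorylation target downstream of mTOR, for RPLP0, the base of the stalk, and for RPS27 and RPL3. In the pairs of a main gene and its paralogue, RPL22, RPL26, RPL39 and RPL7 were called in both palbociclib libraries, while RPL22L1, RPL26L1, RPL39L and RPL7L1 were called in none. RPS27 was called in none and RPS27L in 1, RPL10 in 1 and RPL10L in none, and RPL3 and RPL3L in none. The others without a palbociclib peak included RPL6, RPL10A, RPL12, RPL13, RPL13A, RPL15, RPL17, RPL21, RPL24, RPL27, RPL29, RPL30, RPL31, RPL32, RPL34, RPL35A, RPL36A, RPL37, RPL37A, RPL38, RPS2, RPS4X, RPS7, RPS10, RPS12, RPS13, RPS15, RPS18, RPS23, RPS26 and RPS28. A gene without a peak did not reach the q-value cutoff of the peak caller, and the lists cannot show that no Rb was there.

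In both palbociclib libraries, peaks at ribosomal protein promoters lay further upstream at the median than those at other promoters. The median distance from the summit to the nearest TSS of the gene was 200 and 264 bp in the palbociclib libraries, against 115 and 113 bp at other genes. With upstream as negative, the median position was -168 and -201 bp against -26 and -28 bp. Summits within 200 bp of the TSS made up 50% and 42.9% of ribosomal protein peaks and 72.7% and 73.3% of the others. The distance was larger in the large subunit (266 and 296 bp) than in the small subunit (126 and 83 bp), where it was close to that of other genes.

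**Figure D4:**
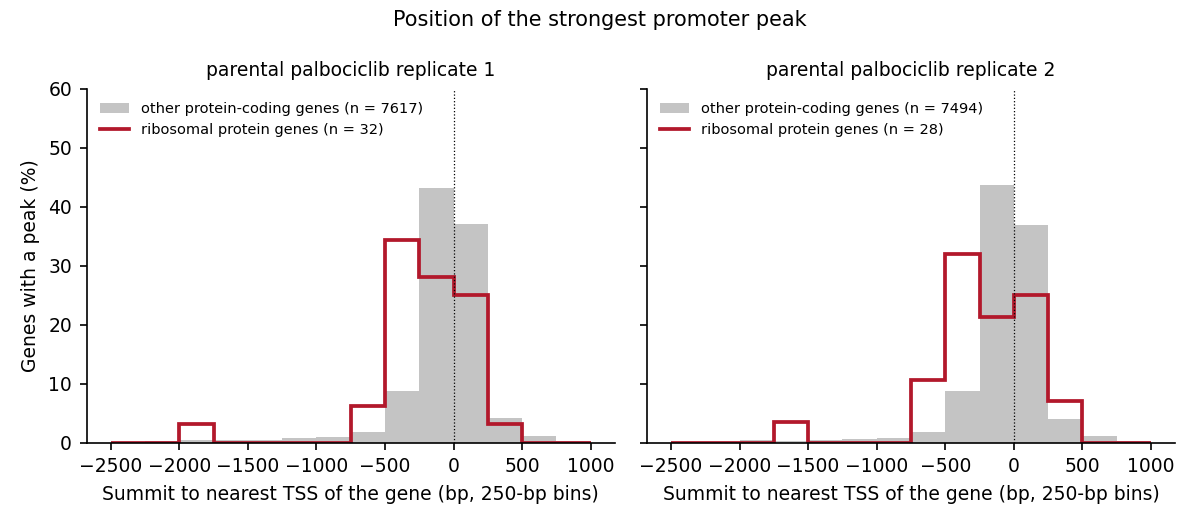
Position of the summit relative to the nearest TSS of the gene (horizontal axis, bp, negative upstream, bins of 250 bp) as a share of called genes (vertical axis, %), for palbociclib replicates 1 (left) and 2 (right). Red outlines are ribosomal protein genes (n = 32 and 28) and grey fill the other genes (n = 7617 and 7494). The red outline is highest between 500 and 250 bp upstream and the grey fill in the 250 bp before the TSS.

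Many of these summits were nearer to the start of another gene. Set against the TSSs of every annotated transcript of any gene type, the summit was nearest to the ribosomal protein gene itself in both palbociclib libraries at 12 of the 25 genes (48%) and nearest to a different gene in both at 11 (44%). Among the 6709 other genes called in both, the shares were 72.4% and 18%. All 11 were large-subunit genes, out of 14 called, and 10 of the 11 called small-subunit genes had their own TSS nearest. At RPS25 and RPS29 that TSS belonged to a transcript that is not protein-coding. Against protein-coding TSSs, with upstream as negative, the RPS25 summit lay at -277 and -284 bp from its own. It lay at -146 and -139 bp from that of TRAPPC4. The RPS29 summit lay at -382 and -394 bp from its own and at 132 and 144 bp from that of LRR1. The neighbours at the 11 large-subunit genes were SPHK2 at RPL18, RNF207 at RPL22, TRIM66 at RPL27A, TMEM238 at RPL28, ARPC5L at RPL35, HSD11B1L at RPL36, ZWILCH at RPL4, MED22 at RPL7A and PIDD1 at RPLP2, and non-coding genes at RPL26 and RPL39. The summit at RPL18 was 5 and 0 bp from the SPHK2 TSS. At RPL7A it was 70 and 14 bp from the MED22 TSS, and at RPL36 it was 9 and 84 bp from that of HSD11B1L. A single peak over a shared promoter cannot be divided between the 2 genes.

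A larger share was called among promoters that hold the protein-coding TSS of a second gene, for ribosomal protein genes as for the rest. Of the 84 genes, 26 (31.0%) had such a promoter, 17 of 52 in the large subunit and 9 of 32 in the small subunit. Of the 26, 11 (42.3%, exact 95% interval 23.35 to 63.08%) were called in both palbociclib libraries. The 26 include RPL17 and RPS10, neither of them called. Their only second gene is a joint annotation that carries their own symbol, RPL17-C18orf32 and RPS10-NUDT3. Of the 58 without a second protein-coding TSS, 14 (24.1%, exact 95% interval 13.87 to 37.17%) were called. The corresponding shares of other genes were 56.9% and 28.9%. The intervals of the ribosomal protein shares overlap. Starts of transcripts that are not protein-coding did not count as a second TSS. The 58 include RPL22 and RPLP2, whose summits lay nearest to an RNF207 or PIDD1 start. They also include RPL26 and RPL39, whose summits lay nearest to non-coding genes.

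Peaks beside the promoter were counted as well. Within 10000 bp of the gene but outside its promoter, 20 ribosomal protein genes (23.8%) had a peak in each palbociclib library, against 19% and 18.5% of the other genes. A summit inside the gene body but outside the promoter was found at 2 and 3 ribosomal protein genes (2.38% and 3.57%), against 4.42% and 4.32% of the other genes.

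Promoter sequence was compared over the 250 bp before and the 50 bp after the canonical TSS. The TOP motif, counted as C at the TSS followed by at least 4 pyrimidines, was present at 59 of 84 ribosomal protein genes (70.2%) and at 4.35% of the others. It was present at 24 of the 25 genes called in both palbociclib libraries (96%) and at 35 of the 59 that were not (59.3%), or 34 of 52 (65.4%) once the paralogues were left out. Allowing 5 bp to each side of the TSS, the counts were 25 of 25 and 43 of 59. By that wider rule TOP was present at 21.7% of called and 21.7% of uncalled other genes. With C at the TSS itself, it was present at 5.08% of the other genes called and 3.97% of those not called.

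The E2F motif was found at 5 of 84 ribosomal protein promoters (5.95%) and at 4.37% of all protein-coding promoters. It was held by 4 of the 25 called genes, RPL36, RPL7A, RPLP2 and RPS20, and by 1 of the 59 others, RPL23A. At other genes the shares were 7.56% when called and 2.69% when not. Inside the called peak itself, an E2F match occurred at 6 of 32 and 5 of 28 ribosomal protein genes (18.8% and 17.9%) and at 14.1% and 13.9% of the other called genes. The 5 genes with a match inside the peak in both libraries were RPL14, RPL7A, RPLP2, RPS20 and RPS29. The RPS29 match lay in the peak beside the LRR1 TSS, and the window at the canonical RPS29 TSS held none.

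The remaining motifs were counted in the same windows, and uncalled means here not called in both palbociclib libraries. The ETS motif CCGGAAG was found at 35.7% of ribosomal protein promoters and 14% of all promoters, and at 28% of called and 39% of uncalled members. The YY1 motif AAGATGG was found at 17.9% against 6.45%. The SP/KLF motif GGGCGG was found at 59.5% against 61.6%, with 56% of called and 61% of uncalled members. At other genes the SP/KLF share was 82% when called and 51% when not. The NFY motif CCAAT was found at 32.1% against 36% of all promoters. The NRF1 motif GCATGCG was found at 9.52% against 5.09% and the CRE motif TGACGTCA at 4.76% against 2.73%. The median GC content was 60% in called and in uncalled members, and 68.3% and 60.7% in called and uncalled other genes. At 6 of the 25 called members (RPL4, RPL7, RPL22, RPL28, RPL36 and RPS29) the peak does not reach this window in either palbociclib library. Over all genes, an E2F match overlapped an SP/KLF match in 106 promoters.

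**Figure D5:**
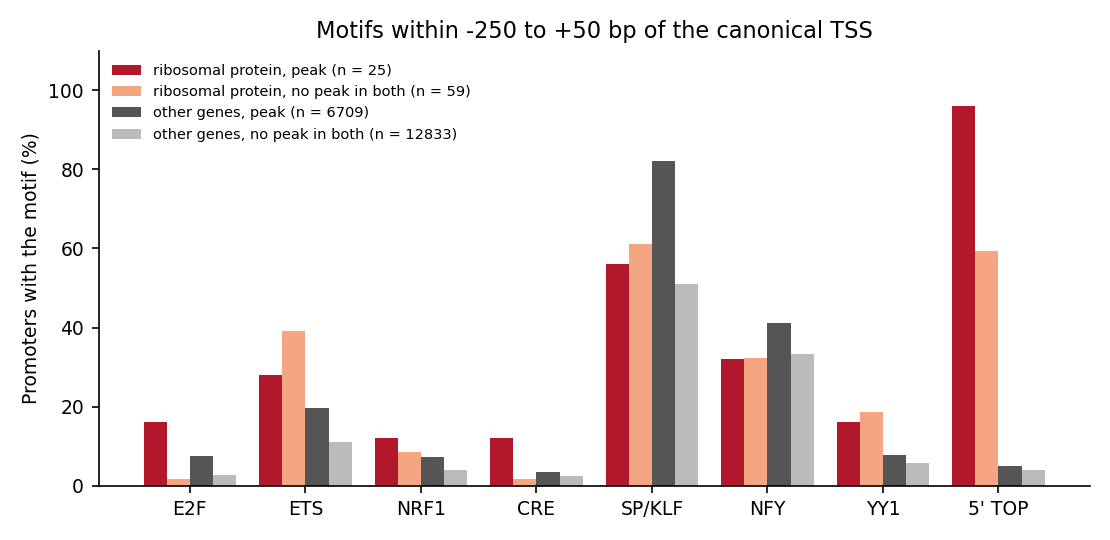
Share of promoters (vertical axis, %) with each motif in the 250 bp before and the 50 bp after the canonical TSS, for ribosomal protein genes with a peak in both palbociclib libraries (red, n = 25) and without (light red, n = 59), and for other genes with (dark grey, n = 6709) and without (light grey, n = 12833). The TOP bars stand at 96% and 59.3% for ribosomal protein genes and near the axis for the others, and the SP/KLF bars at 56% and 61% against 82% and 51%.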

How the data were processed

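Per the labels and the study's methods, reads of 7 CUT&RUN libraries were aligned by the authors to hg38 with Bowtie2 2.3.4.1, and peaks were called for each library separately with MACS2 2.2.7.1 at a q-value cutoff of 0.05 against an IgG control. The control of the IgG2a list is not given in the sources used here. The deposited lists give the fold enrichment (a ratio) of each peak, and the authors' −log10 p and −log10 q. They carry no read totals, so depth is unknown here. Lists called at different depth or background differ in length.

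Gene models were those of GENCODE 44 on hg38, and no peak lay past a chromosome end. Protein-coding genes without a protein-coding transcript (344) were left out. A call needed an overlap of 1 bp, and the peak with the highest fold enrichment represented a gene. Members and lists were chosen with earlier results of these data known. Genes described in full were the 10 with the highest mean fold enrichment among those called in both palbociclib libraries, those called with DMSO, in 1 palbociclib library, in RB1 KO cells or with IgG2a, and 24 fixed genes; others were named after their values were seen. Shares of members have exact (Clopper-Pearson) 95% binomial intervals. Libraries were compared by an exact two-sided permutation test (SciPy 1.17.1), and groups of 1 library were not tested. The calls and the motif search were tested on simulated data. Replicate numbers name libraries only. Some genes are not reported by name here.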

Additional observations from a re-analysis of the deposited data

Results flagged for a closer look

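The IgG2a library, whose list is not one of the Rb lists compared, had a peak at 4 ribosomal protein promoters. The fold enrichment was 6.16 at RPS23, 4.51 at RPLP1, 4.47 at RPL38 and 4.26 at RPL14. The RB1 KO libraries had none at these promoters. The summits lay 111, 64, 165 and 120 bp downstream of the nearest TSS of the gene, in the order above. RPS23 ranked 27 of the 340 genes called with IgG2a. At RPL14 the Rb peaks of the palbociclib libraries (5.47 and 6.89) overlapped the IgG2a peak, with summits within 10 bp of its own. The part of background cutting in the RPL14 and RPLP1 calls was not tested. The Rb peaks were called against matched IgG libraries, and whether this one was among them is not given in the sources used here.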

How the results depend on the processing

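The rise of 31.5 percentage points in called ribosomal protein genes kept its direction under every alternative but 1, and no setting with 2 libraries against 2 could give an exact p below 0.333. With all parental lists cut to 753 peaks it was -1.79 points, and the share called in both palbociclib libraries 2.38% (2 of 84 genes). The ratio of median fold enrichment to other genes was then 1.27 and rested on those few genes. By construction that setting removes the greater length of the palbociclib lists. With a −log10 q of at least 5 the share was 19% and the ratio 0.854. The ratio was 0.79 with canonical TSSs only, 0.835 with a fold enrichment of at least 5, and 0.629 as a ratio of median percentile ranks by −log10 q. With the TSSs of all transcripts, an alternative chosen after seeing the data like the common p cutoff, the median summit distance was 172 bp. Within 100 bp of the summit, over called members alone, shares with a motif were 9.82% (ETS), 0% (NRF1), 0% (CRE), 16.5% (NFY) and 4.91% (YY1). This setting changes the window and the genes counted together. Around the summits of other called genes, palbociclib replicates 1 and 2 gave 9.7% and 10.3% (ETS), 3.98% and 4.16% (NRF1) and 1.12% and 1.13% (CRE). They gave 25.2% and 26.1% for NFY and 3.73% and 3.78% for YY1. The cause of the other shifts was not tested. Leaving out 1 library at a time gave a rise of 29.2 to 33.9 points, a share of 33.3 to 38.1%, a ratio of 0.801 to 0.826 and a distance of 200 to 264 bp. Treating equal replicate numbers as pairs (replicate block) left the rise at 31.5 points, with an exact p of 0.5, the smallest that 2 pairs allow. The lists give no depth, and 2 libraries per arm limit every test.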
